A study of Mus musculus with 6 samples.

Results

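Genes for 10 lipid-sensing receptors were followed here in myoblasts, whether or not these cells express them. The genes are Gpr18, for the receptor that the synthetic agonist PSB-KD107 was made for, together with Gpr55, Gpr35, Cnr1, Cnr2, Lpar1, Lpar4, S1pr1, S1pr2 and S1pr3. They were taken by symbol from the 47069 genes of the count table, in which each has 1 row. The cells were cultured myoblasts derived from muscle stem cells of mdx mice, which lack dystrophin and serve as a model of Duchenne muscular dystrophy. They were sorted as negative for Sca-1, CD45, CD31 and CD11b and positive for Itgb1 and Itga7, and grown in medium with serum and FGF2. Serum, present for both groups, is known to contain lysophosphatidic acid and sphingosine-1-phosphate. There were 3 libraries of mdx myoblasts with vehicle (DMSO) and 3 of mdx myoblasts with 10 μM PSB-KD107; the sample records give 2 days of treatment, the study's methods an overnight one. The sample characteristics label the compound PSB-KD-1, their treatment protocol PSB-KD107. The methods name 3 different mice as the source of the cells; for the animal experiments they give male C57BL/10 mdx mice, and they do not say whether the age and sex given there hold for the donors of these cells.

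All 10 genes encode G protein-coupled receptors, which cross the plasma membrane and pass the binding of a ligand outside the cell to G proteins inside it. Lpar1 and Lpar4 respond to lysophosphatidic acid, S1pr1, S1pr2 and S1pr3 to sphingosine-1-phosphate, and Cnr1 and Cnr2, the cannabinoid receptors CB1 and CB2, to endocannabinoids. Gpr18, Gpr35 and Gpr55 were named as orphans, and lipids such as N-arachidonoyl glycine and resolvin D2 for Gpr18 and lysophosphatidylinositol for Gpr55 have since been proposed as their ligands. In muscle, sphingosine-1-phosphate is known as a signal for satellite cells to leave quiescence, and lysophosphatidic acid as a growth signal for many cultured cells.

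Cnr1, Cnr2 and Lpar1 lie on chromosome 4, Gpr35 and Gpr55 on chromosome 1 and each of the others on a chromosome of its own, and their starts differ in base composition. The sequences of 5 of them are shown, the upstream-most start that RefSeq lists for each, because they include both receptors with no counts in any library, a pair from the most highly expressed group, and the receptor nearest to the expression threshold. Each runs from 250 bases before to 50 bases after the start, 5′ to 3′ on the gene's strand, in RefSeq's GRCm38.p6, with every CpG in capitals. Gpr18 starts within chr14:121915839-121916138 on the minus strand, Cnr2 within chr4:135894939-135895238 on the plus strand, Cnr1 within chr4:33924014-33924313 on the plus strand, Lpar1 within chr4:58553442-58553741 on the minus strand and S1pr2 within chr9:20976744-20977043 on the minus strand.
Gpr18: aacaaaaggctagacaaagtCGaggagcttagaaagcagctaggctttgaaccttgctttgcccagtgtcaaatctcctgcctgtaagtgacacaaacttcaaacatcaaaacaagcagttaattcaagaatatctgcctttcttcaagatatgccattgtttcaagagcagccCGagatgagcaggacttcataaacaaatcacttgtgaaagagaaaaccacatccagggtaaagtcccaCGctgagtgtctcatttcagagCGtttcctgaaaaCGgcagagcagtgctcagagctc
Cnr2: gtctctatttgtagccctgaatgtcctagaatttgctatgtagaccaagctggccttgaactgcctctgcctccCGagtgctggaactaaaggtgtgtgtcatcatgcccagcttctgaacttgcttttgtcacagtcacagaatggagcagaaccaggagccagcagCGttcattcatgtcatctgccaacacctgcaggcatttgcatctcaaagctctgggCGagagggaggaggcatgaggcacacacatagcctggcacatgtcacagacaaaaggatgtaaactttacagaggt
Cnr1: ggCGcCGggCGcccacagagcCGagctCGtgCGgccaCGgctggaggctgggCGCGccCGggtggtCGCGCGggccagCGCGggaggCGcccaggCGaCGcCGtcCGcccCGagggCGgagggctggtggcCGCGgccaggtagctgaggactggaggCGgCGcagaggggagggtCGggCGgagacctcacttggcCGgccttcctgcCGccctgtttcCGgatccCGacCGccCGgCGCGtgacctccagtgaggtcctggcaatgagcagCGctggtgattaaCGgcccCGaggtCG
Lpar1: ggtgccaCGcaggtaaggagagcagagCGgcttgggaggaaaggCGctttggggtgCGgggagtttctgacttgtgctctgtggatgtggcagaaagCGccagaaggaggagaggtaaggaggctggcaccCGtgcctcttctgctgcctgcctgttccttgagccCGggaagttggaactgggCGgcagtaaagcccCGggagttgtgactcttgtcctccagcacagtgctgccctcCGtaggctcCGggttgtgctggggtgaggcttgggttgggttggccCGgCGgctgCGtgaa
S1pr2: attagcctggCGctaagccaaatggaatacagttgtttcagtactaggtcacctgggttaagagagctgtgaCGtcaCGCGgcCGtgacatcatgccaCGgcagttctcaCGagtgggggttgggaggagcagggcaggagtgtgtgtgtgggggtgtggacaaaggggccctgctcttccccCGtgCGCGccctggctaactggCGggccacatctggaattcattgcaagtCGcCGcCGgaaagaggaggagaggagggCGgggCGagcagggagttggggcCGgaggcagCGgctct

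Among these 5 windows, Gpr18 held 5 CpG and Cnr2 held 3, against 40 in Cnr1, 14 in Lpar1 and 18 in S1pr2. The median over 32851 mouse promoters of the same length was 7 CpG, and 3.46% of them held more than the Cnr1 window. RefSeq's table had an entry for 9 of the 10 receptors, 15 starts in all, and S1pr1 had none. Of the remaining receptors, Gpr55 held 4 CpG, Lpar4 held 6, S1pr3 held 14, and Gpr35 held 0 and 6 at its 2 starts. A second Cnr1 start held 33 CpG and a second Lpar1 start 37, whereas a further start of these genes held 5 and 3. CpG density did not follow the level of the gene throughout. Lpar4 was expressed and its window held 6 CpG, while S1pr3, at a low level, had as many as the upstream start of Lpar1. The counts are per gene and do not show which start was used. Of the 4 motifs searched on both strands, the cAMP response element TGACGTCA occurred in the S1pr2 window and in 1.79% of all promoters, and its core TGACG, which overlaps it, in the same window and in 20.8% of all. The E-box CAGCTG was found upstream of Gpr35 and S1pr3 and in 16.3% of promoters, and the element TGATGCAA in none of the 15 and in 0.895% of all. A match is a stretch of letters and not evidence of binding.

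The drug's target was not detected. Gpr18 had 0 counts in each of the 6 libraries, vehicle and PSB-KD107 alike. The libraries held between 30917613 and 48756794 counts, so that 3 counts, the limit that a count of 0 allows, correspond to between 0.0596 and 0.0962 CPM (counts brought to a common library size with TMM factors). For the 1498 exon bases of Gpr18 this is between 0.0398 and 0.0642 FPKM, that is CPM per kilobase of exon, and like all such limits here it covers counting error only. A level of Gpr18 below it could have gone unseen in a single library at this depth. Over all libraries 24.3% of the 21637 protein-coding genes had no count in any library, so a silent gene was no rarity. Gpr18 (chr14:121911253-121915781, minus strand, 2 exons) lies within Ubac2, a gene of the endoplasmic reticulum on the opposite strand, with which it shares 0 exon bases. For Ubac2, 1453, 845 and 841 reads were counted with vehicle and 1774, 742 and 727 with PSB-KD107. As no exon bases are shared, these counts do not show whether a read on Gpr18 would have been counted. How the counting program used strand is not given in the sources used here.

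Cnr2 and Gpr55 were at or near 0 as well. Cnr2 (chr4:135895394-135920207), the cannabinoid receptor of leukocytes, had 0 counts in all 6 libraries, with an upper limit between 0.0150 and 0.0242 FPKM in a single library. Gpr55 (chr1:85938318-85961007) had 1 count in all, in PSB-KD107 library 1. It shares 71 exon bases with 4933407L21Rik on the opposite strand, which had 0 counts. No direction can be given for any of these 3 genes, and none entered the test. Markers of immune cells, in which Gpr18 and Cnr2 are best known, were low: of 10 immune markers none exceeded 1 CPM in every library, Adgre1 and Ly6g were at 0 throughout, Itgam, which encodes the CD11b antigen excluded in the sort, was at 4.23, 2.72 and 1.92 CPM with vehicle and 2.64, 1.25 and 0.385 CPM with PSB-KD107, and the summed level of the 10 was 5.18, 3.49 and 2.39 CPM with vehicle and 7.31, 2.66 and 0.989 CPM with PSB-KD107. Cd68 did not follow Itgam, at 0.535, 0.573 and 0.372 CPM with vehicle and 3.83, 1.19 and 0.220 CPM with PSB-KD107. Without Itgam the immune sum was 0.943, 0.773 and 0.465 CPM with vehicle and 4.67, 1.41 and 0.605 CPM with PSB-KD107. By contrast 9 of 10 myogenic markers exceeded 1 CPM in every library, with a sum between 7683 and 9712 CPM.

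**Figure D1:**
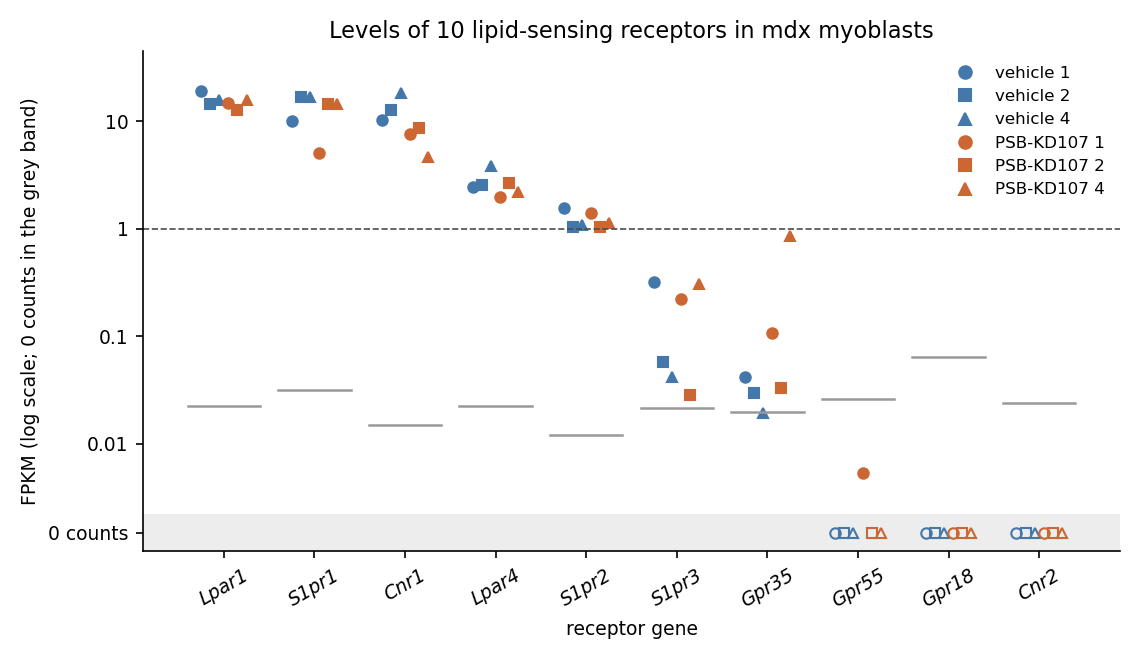
Level of the 10 receptors in each library, in FPKM on a log axis, with vehicle libraries in blue, PSB-KD107 libraries in orange, the marker shape giving the library number, and open symbols in the grey band for 0 counts. The dashed line is 1 FPKM and each grey dash the highest 3-count limit of that gene; Lpar1, S1pr1, Cnr1, Lpar4 and S1pr2 lie above the line in all 6 libraries, and Gpr18 and Cnr2 are in the band in all 6.

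Of the 10 receptors, 5 were expressed, taking a mean of at least 1 FPKM in a condition as the threshold, and they were the same 5 with vehicle and with PSB-KD107. With vehicle, 46.2% of all protein-coding genes reached that level. Lpar1 was at 19.0, 14.5 and 15.7 FPKM in vehicle libraries 1, 2 and 4, a mean of 16.4 ± 2.35 (SD, n = 3). S1pr1 was at 10.1, 16.6 and 16.6 FPKM in the same libraries, a mean of 14.5 ± 3.75, and Cnr1 at 10.2, 12.6 and 18.2 FPKM, a mean of 13.7 ± 4.09. These 3 receptors overlapped in their ranges and cannot be ordered: Lpar1 exceeded S1pr1 in 3 of 6 libraries, and S1pr1 exceeded Cnr1 in 3 of 6. All 3 stood well within the expressed part of the transcriptome, since between 13.6% and 16.1% of protein-coding genes had a higher mean level with vehicle. Lpar4 followed at 2.93 ± 0.79 FPKM and S1pr2 at 1.23 ± 0.29 FPKM. Each step from Cnr1 to Lpar4, from Lpar4 to S1pr2 and from S1pr2 to S1pr3 was free of overlap and went the same way in 6 of 6 libraries. S1pr3 at 0.14 ± 0.16 FPKM and Gpr35 at 0.030 ± 0.011 FPKM overlapped each other. Gpr35 exceeded Gpr18, which had 0 counts throughout, in 6 of 6 libraries and without overlap. The Gpr35 vehicle values of 0.0422, 0.0296 and 0.0192 FPKM lie within or below the range of the single-library Gpr18 limit. A single vehicle library therefore does not tell these levels apart, and a limit over several libraries was not computed.

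Among the receptors followed here, those expressed were of 3 kinds by ligand. With vehicle the lysophosphatidic acid receptors added up to 19.4 ± 2.22 FPKM, the sphingosine-1-phosphate receptors to 15.8 ± 3.31 FPKM and the cannabinoid receptors, all of it Cnr1, to 13.7 ± 4.09 FPKM. The orphan receptors came to 0.030 ± 0.011 FPKM, all of it Gpr35. With PSB-KD107 the same sums were 16.6 ± 1.32, 12.6 ± 5.15, 6.97 ± 2.09 and 0.332 ± 0.452 FPKM. In these bulk samples, fewer cells of a type and less RNA per cell cannot be told apart.

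The groups were then compared with the quasi-likelihood test of edgeR, fitted to the 14165 genes that passed a filter on low counts and adjusted over all of them by the Benjamini-Hochberg method. The filter passed 6 of the 10 receptors, Cnr1, Lpar1, Lpar4, S1pr1, S1pr2 and S1pr3, and left out Gpr18, Cnr2, Gpr55 and Gpr35. The test called 0 of the 6 receptors at an adjusted p of 0.05, where it called 0 of 14165 genes (0.0%). At an unadjusted p under 0.05 it passed 1 of the 6, Cnr1, against 9.4% of all genes, and DESeq2 called 0 of the 6 against 2.77% of the genes to which it gave an adjusted p. The groups did not overlap for 1 of the 6, against 15.8% of all genes tested. The fitted fold change was below 1 for 5 of the 6 and for 50.1% of all genes, and the log2 fold changes had a median of -0.28 for the 6 and of -0.00 for all. A share of 1 in 6 is near the background for genes past an unadjusted p and for groups that do not overlap.

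Cnr1 (chr4:33924593-33948831, plus strand) encodes the receptor CB1, which in brain restrains transmitter release and signals through inhibitory G proteins. In DESeq2, which also kept Gpr35, the unadjusted p was 0.00257 for Gpr35 and 0.00304 for Cnr1. Of the receptors that passed the filter of the edgeR fit, Cnr1 had the smallest p. It had 2572, 2841 and 3775 counts with vehicle and 2476, 1738 and 1084 with PSB-KD107. On the CPM scale this was 65.6, 81.3 and 117.0 with vehicle and 49.2, 55.7 and 29.8 with PSB-KD107, so that each treated library lay below each vehicle library. The mean was 88.0 ± 26.4 CPM with vehicle and 44.9 ± 13.5 CPM with PSB-KD107 (SD, n = 3), a log2 fold change of -0.97 with an SE of 0.30 and a fold of 0.51. In edgeR the unadjusted p was 0.0184 and the adjusted p 0.414, and DESeq2 gave an adjusted p of 0.0868. The two-sided exact permutation test gave p = 0.1, the smallest that 3 against 3 libraries allow. The extremes were both libraries numbered 4, the highest vehicle and the lowest treated one. Leaving out vehicle library 4 moved the log2 fold change to -0.71, and leaving out PSB-KD107 library 4 to -0.75.

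Among the markers of the cells themselves, 2 of the 9 myogenic ones tested passed an unadjusted p of 0.05, against 9.4% of all genes. Pax7, the transcription factor of satellite cells, was at 68.7, 49.8 and 60.0 CPM with vehicle and 34.0, 26.7 and 35.1 CPM with PSB-KD107 (log2 fold change -0.90, adjusted p = 0.209 in edgeR and 0.00193 in DESeq2). Myog, which marks the onset of differentiation, was at 2041, 2201 and 2157 CPM with vehicle and 1174, 1725 and 1659 CPM with PSB-KD107 (adjusted p = 0.469 in edgeR and 0.214 in DESeq2). Of the other 7, Myf5 and Des had positive log2 fold changes of 0.73 and 0.15, the remaining 5 negative ones. The sum of 5 pericyte and smooth muscle markers was 106.7, 85.9 and 73.2 CPM with vehicle and 93.1, 77.0 and 40.0 CPM with PSB-KD107, and was lowest, like Cnr1, in PSB-KD107 library 4. That low value was Abcc9, a subunit of ATP-sensitive potassium channels, at 22.6 CPM there and between 64.4 and 91.2 CPM elsewhere. Without Abcc9 the sum was 15.6, 8.64 and 8.87 CPM with vehicle and 6.85, 8.27 and 17.3 CPM with PSB-KD107, and Rgs5 was highest in that library, at 6.79 CPM, while Kcnj8 was at or near 0. The part of these differences in the Cnr1 values was not tested. The genes whose log2 CPM followed Cnr1 most closely over the 6 libraries, among 12273 genes compared, were Ddx39b, an RNA helicase of mRNA export, with a Pearson's r of 0.996, the retinoid X receptor gene Rxrb with 0.993, and Lrrc73 with 0.991. These correlations describe 6 libraries that also share their treatment. The range of these genes was narrower, with Ddx39b between 162.8 and 250.4 CPM.

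**Figure D2:**
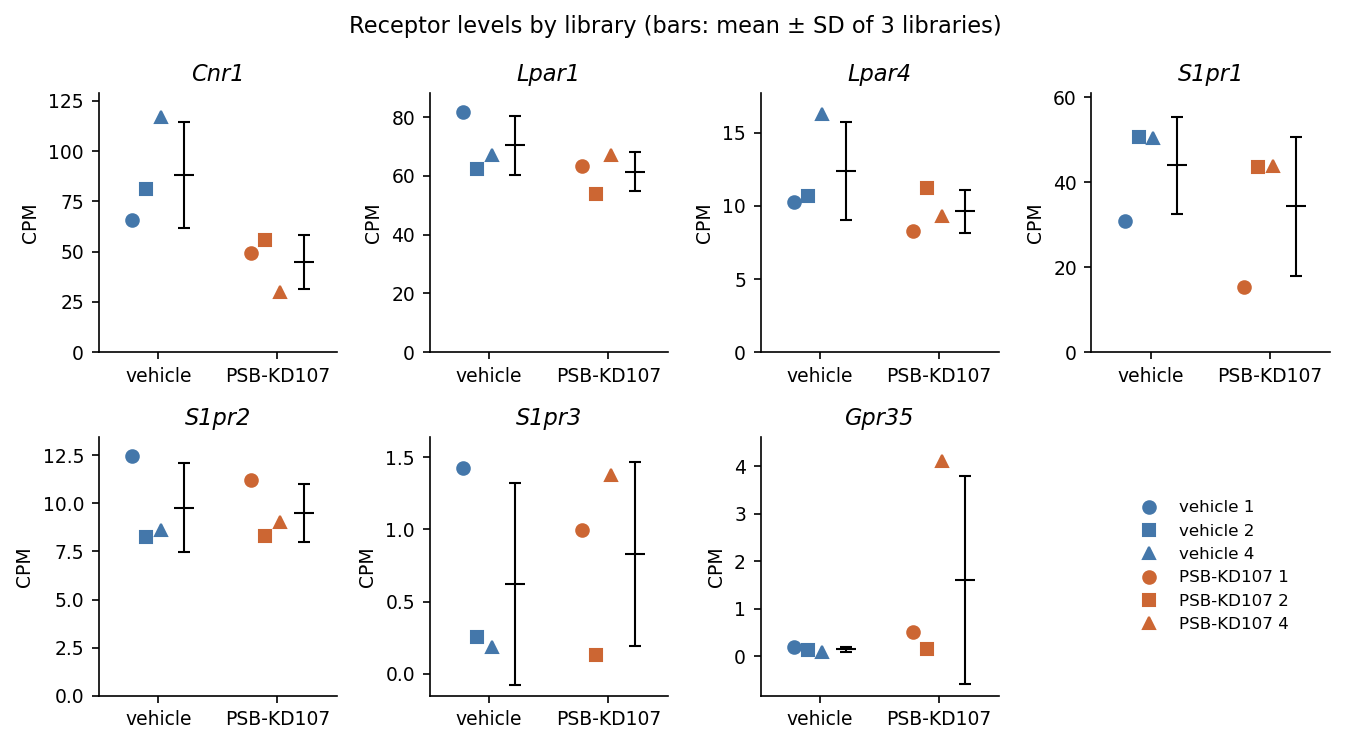
CPM of 7 receptors in each library, with vehicle in blue, PSB-KD107 in orange, the marker shape giving the library number, and a bar for the mean ± SD of 3 libraries. The groups separate for Cnr1 only, S1pr1 is lowest in PSB-KD107 library 1 (15.4 CPM), and Gpr35 is near 0 except in PSB-KD107 library 4 (4.12 CPM).

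Of the lysophosphatidic acid receptors, Lpar1 (chr4:58435255-58553898, minus strand), which couples to several classes of G protein and acts on the cytoskeleton and on growth, was at 81.7, 62.3 and 67.3 CPM with vehicle and 63.4, 54.0 and 67.2 CPM with PSB-KD107. The groups overlapped, and the log2 fold change was -0.19 with an SE of 0.14 (edgeR adjusted p = 0.720). An interval of 2 SE to each side ran from -0.48 to 0.09. The highest value of Lpar1 was 1.51 times its lowest, and that of Lpar4 1.96 times. Lpar4 (chrX:106920625-106933900, plus strand), a receptor of a different family from Lpar1 that can raise cAMP, was at 10.3, 10.7 and 16.3 CPM with vehicle and 8.30, 11.2 and 9.32 CPM with PSB-KD107. Vehicle library 4 was the high one, and the rest overlapped. For Lpar4 the log2 fold change was -0.37 with an SE of 0.24 (edgeR adjusted p = 0.687), with an interval from -0.85 to 0.12.

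Of the sphingosine-1-phosphate receptors, S1pr1 (chr3:115710433-115715072, minus strand), which couples to inhibitory G proteins and guides cell migration, was at 30.8, 50.7 and 50.5 CPM with vehicle and 15.4, 43.6 and 43.8 CPM with PSB-KD107. In both groups the library numbered 1 was the low one, and the other libraries lay within 43.6 to 50.7 CPM. The log2 fold change was -0.36 with an SE of 0.43 (edgeR adjusted p = 0.825), its interval ran from -1.22 to 0.49, and without PSB-KD107 library 1 it was -0.02. S1pr2 (chr9:20962361-20976781, minus strand), which opposes migration in many cells, was at 12.4, 8.24 and 8.62 CPM with vehicle and 11.2, 8.30 and 9.04 CPM with PSB-KD107. Here the library numbered 1 was the high one in both groups. The log2 fold change was -0.04 with an SE of 0.23 (edgeR adjusted p = 0.970) and an interval from -0.50 to 0.42.

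S1pr3 (chr13:51408639-51422797, plus strand), a receptor prominent in vascular cells, was low and uneven. It had 56, 9 and 6 counts with vehicle and 50, 4 and 50 with PSB-KD107, which is 1.43, 0.258 and 0.186 CPM and 0.993, 0.128 and 1.37 CPM. The values were high in 1 vehicle and 2 treated libraries and low in the others. The highest was 11.1 times the lowest, a range exceeded by 5.39% of the tested genes that had counts in every library. The log2 fold change of 0.41 had an SE of 1.04 (edgeR adjusted p = 0.920), with an interval from -1.66 to 2.48, and it became -0.13 without PSB-KD107 library 4. The sum of 5 endothelial markers was highest in the same 3 libraries, at 1.40, 0.544 and 0.310 CPM with vehicle and 0.814, 0.385 and 1.13 CPM with PSB-KD107. So was the sum of 7 fibroblast and mesenchymal progenitor markers, at 3.11, 1.86 and 1.58 CPM with vehicle and 3.75, 1.67 and 9.89 CPM with PSB-KD107. Single endothelial markers did not all follow. In PSB-KD107 library 1, Tek was at 0.457 CPM, but Cdh5, at 0.20 CPM, was below its 0.34 CPM in vehicle library 2. Pecam1 there, at 0.119 CPM, was below its 0.128 CPM in PSB-KD107 library 2. Emcn was at 0 in all libraries, and none of the 5 endothelial markers exceeded 1 CPM in every library. The part of the markers in the S1pr3 values was not tested. S1pr3 shares 45 exon bases with Gm32834, an RNA gene on the opposite strand that has no row in the table.

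**Figure D3:**
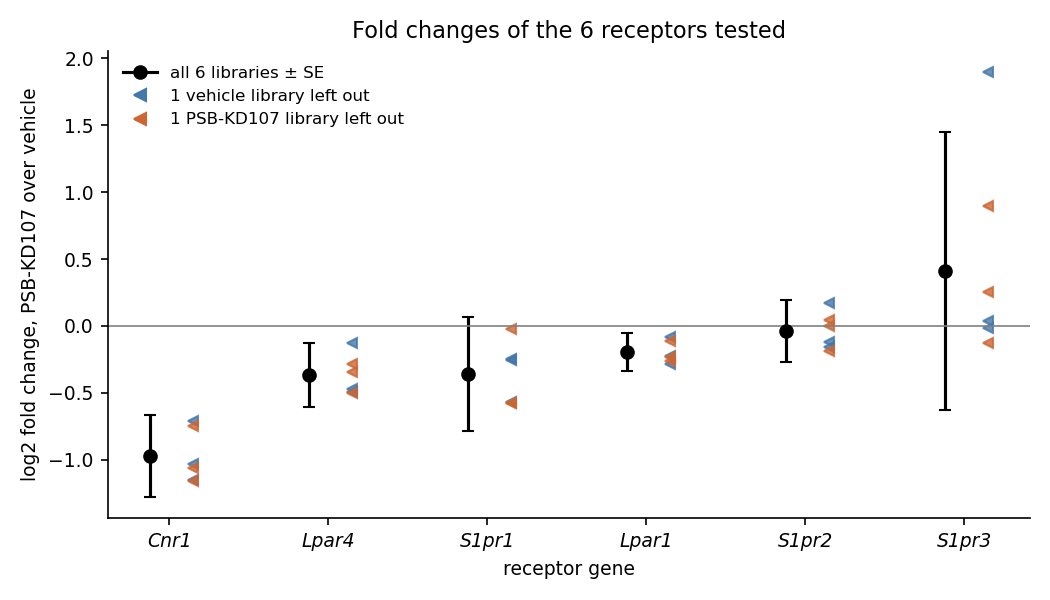
Log2 fold change of the 6 receptors tested, PSB-KD107 over vehicle, with the SE from edgeR (black), and the same value with 1 vehicle library (blue) or 1 PSB-KD107 library (orange) left out. Cnr1 stays below 0 in all 6 of these, from -1.16 to -0.71, and S1pr3 ranges from -0.13 to 1.90.

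Gpr35 (chr1:92950865-92986391, plus strand), a receptor best known from gut and immune cells, stood apart through 1 library. It had 8, 5 and 3 counts with vehicle and 26, 5 and 150 with PSB-KD107, or 0.204, 0.143 and 0.0930 CPM and 0.516, 0.160 and 4.12 CPM. PSB-KD107 library 4 was the high one, library 1 was also above the vehicle libraries, and library 2 lay among them. The filter of the main fit left Gpr35 out. DESeq2, which kept it, gave a log2 fold change of 3.44 with an SE of 1.14 and an adjusted p of 0.0771. edgeR without the filter gave 3.40 and an adjusted p of 0.610, and the exact permutation test p = 0.2. Even in library 4 the level was 0.852 FPKM, below the 1 FPKM taken as expressed. The sum of 7 markers of fibroblasts and mesenchymal progenitors was highest in that library too, at 9.89 CPM against 1.58 to 3.75 CPM in the other 5. Of these markers Ly6a, which encodes the Sca-1 antigen excluded in the sort, was at 8.35 CPM in that library and between 0.155 and 1.29 CPM elsewhere, while Lum and Tcf21 were at 0 in all libraries. Without Ly6a the sum was 1.86, 1.52 and 1.43 CPM with vehicle and 2.46, 1.25 and 1.54 CPM with PSB-KD107. Dcn was lowest in library 4, at 0.0275 CPM against 0.515 to 1.25 CPM elsewhere. Pdgfra was highest there, at 1.46 CPM against 0.609 to 1.17 CPM elsewhere. The immune marker sum was lowest in that library, at 0.989 CPM. Without Itgam it was 0.605 CPM there and was lowest in vehicle library 4, at 0.465 CPM. The part of the markers in the Gpr35 value was not tested.

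The relative weight of the receptors also varied by library. Cnr1 made up 23.3%, 26.6% and 32.8% of the summed FPKM of the 10 receptors with vehicle and 24.5%, 22.0% and 11.8% with PSB-KD107. PSB-KD107 library 1 thus lay within the vehicle range, library 2 just below it and library 4 far below it. Lpar1 held between 28.3% and 47.4% and S1pr1 between 16.3% and 36.7% over the 6 libraries. The lowest S1pr1 share and the highest Lpar1 share were both in PSB-KD107 library 1.

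A further 40 receptors for lipids were read from the same fit: 11 of them had 0 counts in all libraries, 2 had a mean of at least 1 FPKM with vehicle, and 8 passed the filter. The median of their log2 fold changes was 0.25, and 1 of the 8 passed an unadjusted p of 0.05, where 9.4% of all genes did. That was Lpar2, another lysophosphatidic acid receptor, at 1.81, 0.830 and 0.868 CPM with vehicle and 3.48, 2.18 and 1.84 CPM with PSB-KD107. The log2 fold change of Lpar2 was 1.09 with an SE of 0.44 (edgeR adjusted p = 0.526), and its level with vehicle was 0.20 ± 0.095 FPKM. The thromboxane receptor gene Tbxa2r was at 0.46 ± 0.063 CPM with vehicle and 0.18 ± 0.15 CPM with PSB-KD107 (edgeR adjusted p = 0.550). The highest levels were those of Gpr37, for which prosaposin and neuroprotectin D1 have been proposed as ligands, at 4.32 ± 0.85 FPKM with vehicle, and of the prostaglandin E receptor gene Ptger4, at 1.23 ± 0.46 FPKM. Lpar3 was at 0.357, 1.15 and 1.98 CPM with vehicle and 0.179, 1.89 and 4.34 CPM with PSB-KD107, and so varied as much within as between the groups. Receptors S1pr4, Gpr183, Ffar1 and Fpr1 were among the 11 with no count.

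Most of the G proteins that these receptors act through were expressed. Of 13 G protein alpha subunits, 8 had a mean of at least 1 FPKM with vehicle and 11 passed the filter. The most abundant, picked for their level, were Gnas, the stimulatory subunit, at 191.1 ± 13.4 FPKM and the inhibitory subunit Gnai2 at 84.7 ± 2.31 FPKM. The median log2 fold change of the 11 was 0.01, and 2 passed an unadjusted p of 0.05, against 9.4% of all genes. Gna15 had 1 count in each of 2 libraries and 0 in the others. Gna13, a close relative of Gna12, was at 66.6, 61.7 and 63.4 CPM with vehicle and 106.1, 80.6 and 111.0 CPM with PSB-KD107, all treated libraries above all vehicle libraries, a separation that 15.8% of all genes showed in either direction. The difference of 0.64 on the log2 scale with an SE of 0.14 was not called by edgeR (adjusted p = 0.252) and was called by DESeq2 (adjusted p = 0.0320). Gnaz, an inhibitory subunit, was at 1.58 ± 0.28 CPM with vehicle and 2.75 ± 0.27 CPM with PSB-KD107 (edgeR adjusted p = 0.421). The inhibitory subunit Gnai1 was at 33.7 ± 4.91 and 25.0 ± 7.18 CPM (edgeR adjusted p = 0.647).

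Receptor kinases and arrestins, which switch active receptors off and take them into the cell, passed the filter in 6 of 7 cases, and their log2 fold changes had a median of 0.21, while 2 of the 6 passed an unadjusted p of 0.05, against 9.4% of all genes. Grk2 was at 82.6, 87.2 and 89.9 CPM with vehicle and 75.1, 76.4 and 74.0 CPM with PSB-KD107, groups that, as for 15.8% of all genes, did not overlap (log2 fold change -0.20, SE 0.080, edgeR adjusted p = 0.515). Grk6 was at 19.8 ± 1.81 and 16.0 ± 0.59 CPM (edgeR adjusted p = 0.531), and the arrestin gene Arrb2 at 10.0 ± 0.82 and 11.9 ± 0.67 CPM (edgeR adjusted p = 0.651).

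The enzymes that make and remove the ligands were read in the same way. Of the sphingosine-1-phosphate genes 8 of 9 were tested, the log2 fold changes had a median of 0.38, and 3 passed an unadjusted p of 0.05, all with higher values with PSB-KD107, where 6.47% of all genes passed in that direction. Asah1, the lysosomal ceramidase that releases sphingosine, was at 138.8, 129.4 and 125.9 CPM with vehicle and 184.8, 221.0 and 211.1 CPM with PSB-KD107 (log2 fold change 0.65, SE 0.10). The groups were well apart, edgeR gave an adjusted p of 0.184 and DESeq2 one of 0.00042. Sphk1, the kinase that makes sphingosine-1-phosphate, was at 4.18, 1.89 and 1.15 CPM with vehicle and 10.8, 3.75 and 5.91 CPM with PSB-KD107, with overlap (log2 fold change 1.50, SE 0.60, edgeR adjusted p = 0.523). The exporter gene Spns2 was at 0.42 ± 0.066 and 0.81 ± 0.11 CPM (edgeR adjusted p = 0.414). Of the lysophosphatidic acid genes 7 of 8 were tested, with a median of -0.03, and 1 passed an unadjusted p of 0.05, against 9.4% of all genes. It was the phosphatase gene Plpp2, at 15.6 ± 1.70 and 22.6 ± 5.28 CPM (edgeR adjusted p = 0.502). Its relatives Plpp3 and Plpp1, which degrade lysophosphatidic acid outside the cell, were at 94.5 ± 3.45 and 119.9 ± 29.3 CPM and at 213.1 ± 26.2 and 189.5 ± 28.3 CPM, with adjusted p of 0.626 and 0.769 in edgeR.

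Of the 13 endocannabinoid and lysophosphatidylinositol genes 12 were tested, 0 passed an unadjusted p of 0.05 in edgeR or an adjusted p of 0.05 in edgeR or DESeq2, and the median log2 fold change was 0.13. The smallest p were those of Ddhd1, a phospholipase that can form lysophosphatidylinositol, at 8.18 ± 1.97 and 11.4 ± 3.76 CPM, of Abhd4 at 37.4 ± 17.2 and 53.6 ± 18.3 CPM, and of Napepld, which makes N-acylethanolamines, at 5.98 ± 0.96 and 7.46 ± 1.63 CPM, with adjusted p in edgeR between 0.687 and 0.721. Of the 5 resolvin and lipoxygenase pathway genes 2 were tested. Ptgs2, the inducible cyclooxygenase, was at 4.05, 1.52 and 1.43 CPM with vehicle and 38.0, 7.41 and 11.2 CPM with PSB-KD107, above the vehicle libraries in each treated one. The difference of 3.01 on the log2 scale with an SE of 0.78 was not called by edgeR (adjusted p = 0.326) and was called by DESeq2 (adjusted p = 0.00109). Alox5, the lipoxygenase of leukotriene and resolvin synthesis, was at 4.17 ± 2.89 and 4.96 ± 6.16 CPM (edgeR adjusted p = 0.959).

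**Figure D4:**
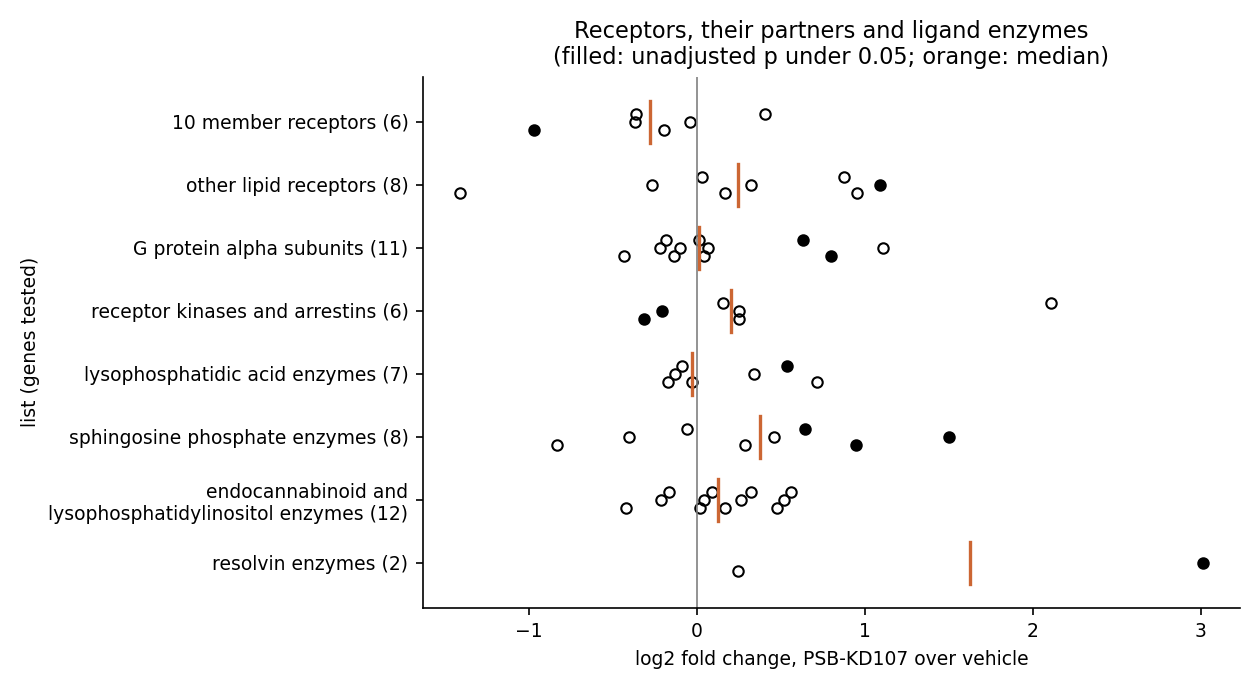
Log2 fold change, PSB-KD107 over vehicle, of each gene tested among the 10 receptors, 40 other lipid receptors, their G proteins, kinases and arrestins, and ligand enzymes, with filled circles for an unadjusted p under 0.05 in edgeR, an orange line for the median and the number of genes tested in brackets. The medians lie between -0.28 for the 10 receptors and 0.38 for the sphingosine-1-phosphate enzymes, apart from the 2 resolvin genes at 1.63.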

How the data were processed

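Directional libraries of polyadenylated RNA were sequenced from both ends, and the authors aligned reads to mm10 with STAR. The deposited table holds raw counts per gene, without normalization. The counting program, its annotation and its strand setting are not given in the sources used here, and overlapping genes are uncertain. Libraries were grouped by column name. The table numbers them 1, 2 and 4 and the sample records 1, 2 and 3, so the libraries numbered 4 were given a group only. Analyses used R 4.3.3, edgeR 4.0.16 (filterByExpr, TMM, quasi-likelihood test), DESeq2 1.42.0, limma 3.58.1 and Python 3.11.15. FPKM used the exon union of GENCODE M21 (GRCm38), which matched 46574 identifiers. Adjusted p-values covered all genes tested and were read at 0.05, and scripts were tested on simulated data. All 10 receptors were reported. Of each list the genes named were the 3 with the smallest edgeR p, of the other lipid receptors also the 3 highest, and for Cnr1 the 3 most correlated genes. Single markers were named after their values were seen, as were Gnas and Gnai2 and the examples among receptors with no count. Members and lists were chosen with earlier results of these data known. Alternatives were other factors, filters and tests, each library left out, and a block by library number. The newer and robust fits and the libraries numbered 1 and 2 without a block were added after seeing the data. The p-values measure the spread between these libraries.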

Additional observations from a re-analysis of the deposited data

How the results depend on the processing

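The receptor count of 0 called by edgeR was also found with RLE factors, no filter, an FPKM filter, limma-voom, DESeq2, the DESeq2 recipe of the methods, each library left out and the newer and robust quasi-likelihood fits. For all genes the count of 0 became 8 with no filter, 407 with DESeq2 and 189 with DESeq2 at 2-fold and a mean of at least 1 FPKM, and it was 0 to 0 with each library left out. The 5 receptors expressed became 6 at a mean of 1 CPM, 7 at 0.1 FPKM and 5 with the length of the longest transcript or any library left out. The numbers did not pair the libraries throughout: deviations from the group means correlated at 0.632 for number 1, 0.520 for number 2 and -0.13 for number 4, over 14165 genes. Vehicle library 4 and PSB-KD107 library 2 correlated at 0.645, above the pair numbered 2. The other pairs of unlike number lay between -0.701 and 0.114. No label says that equal numbers share a mouse. With a replicate block on the 4 libraries numbered 1 and 2, edgeR called 2460 genes and 3 receptors, Cnr1 (adjusted p = 0.00434), Lpar1 (0.0335) and S1pr1 (0.0478). With its block and treatment terms, that fit leaves 1 degree of freedom per gene for the spread, which is then largely shared between genes. The same 4 libraries with no block gave 0 genes, and a replicate block over all 6 libraries gave 0 genes and 0 receptors. With each library left out, S1pr2 ranged from -0.19 to 0.17, and it turned positive without vehicle library 1 (0.17) and without PSB-KD107 library 2 (0.046). S1pr3 ranged from -0.13 to 1.90, and turned to -0.016 without vehicle library 4, to -0.13 without PSB-KD107 library 4, to -0.61 with the block on 4 libraries and to -0.56 on these libraries with no block. Cnr1, Lpar1, Lpar4 and S1pr1 kept a negative log2 fold change in each of 17 alternatives, Cnr1 between -1.16 and -0.48 with an adjusted p between 0.00434 and 1.00. Depth limits what can be said of Gpr18, Cnr2 and Gpr55, which had 0 or 1 count.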
